A study of Homo sapiens with 9 samples.

Results

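The DNA replication machinery was examined as a set of 57 genes: the origin recognition complex, the licensing factors and the MCM2 to MCM7 helicase, the factors that switch the helicase on, the replicative polymerases, the sliding clamp and its loaders, the single-strand binding and Okazaki fragment proteins, the histone chaperones at the fork, the fork scaffold and checkpoint proteins, and the E2F factors with DTL. Members were the rows of the expression table whose gene symbol is on this list, and all 57 were found among 27800 symbols. RNA had been sequenced from Huh7, an established human hepatocellular carcinoma cell line, in 9 libraries. Of these, 3 came from cells given 5 uM FIDAS-5 for 48 h, 3 from cells given 0.5 uM JQ1 for 48 h, and 3 from vehicle-treated cells. FIDAS-5 inhibits MAT2A, an enzyme that makes the methyl donor S-adenosylmethionine, and JQ1 competes with acetylated histones for the bromodomains of BET proteins. All groups were the same line grown in the same serum-containing medium, and each compound was given at a single dose.

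Eukaryotic replication is prepared in G1, when the origin recognition complex, CDC6 and CDT1 load the MCM2 to MCM7 ring onto DNA as an inactive helicase. On entry into S phase CDC45 and the GINS complex join the ring, polymerase alpha with its primase lays down primers, and polymerases epsilon and delta extend them on the leading and lagging strands with PCNA as their clamp. Many of these genes are transcribed around the passage from G1 into S under E2F factors, so their RNA is high in cycling cells and low in resting ones; adult hepatocytes are mostly resting, whereas hepatoma lines such as Huh7 divide in culture.

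Values are TPM, transcript abundances divided by length and scaled to the same total in each library, so levels of different genes can be set beside each other. TPM keeps no read depth, so depth and counting error are unknown. A fold change here is the difference of group means of log2(TPM + 1), which understates the change of genes at low TPM, with its standard error (SE). A gene is called when limma's Benjamini-Hochberg adjusted p over the 13573 tested genes was under 0.05. All 57 members passed the filter on low values, which asked for 1 TPM or more in 3 or more libraries. Nothing in the labels tells if the libraries in each group are from different cultures; the p-values therefore reflect only the variation among these libraries, possibly technical. Both compounds were compared with the same vehicle libraries.

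The line's own markers were abundant: ALB, AFP, APOA1, TTR, HNF4A, GPC3 and SERPINA1 summed to 3559 to 5336 TPM with FIDAS-5, 9461 to 13240 TPM with JQ1 and 4441 to 5332 TPM with vehicle. Of these 7 markers, 5 were called higher and 1 lower with JQ1 than with vehicle. TTR ran against the sum, at 88.9 to 89.6 TPM with JQ1 and 287 to 307 TPM with vehicle. AFP overlapped, at 810 to 2069 TPM with JQ1 and 1382 to 1899 TPM with vehicle. The defining leukocyte gene PTPRC was at 0.918 TPM or less in every library, and VWF, COL1A1 and DCN were at or near 0. Of the cholangiocyte markers KRT7 was at 0 in all libraries, EPCAM lay at 6.64 to 11.0, 2.90 to 5.28 and 5.22 to 6.25 TPM with FIDAS-5, JQ1 and vehicle, and KRT19, called higher with JQ1 than with vehicle, at 1.24 to 3.44, 2.49 to 4.21 and 0.641 to 1.08 TPM. The leukocyte list nonetheless moved between groups, at 238 to 293, 14.1 to 20.0 and 109 to 132 TPM with FIDAS-5, JQ1 and vehicle, nearly all of it LYZ. CD14 lay at 1.92 to 2.02, 1.59 to 2.23 and 2.12 to 2.85 TPM, and CD3E at 0.358 TPM or less. CD68 moved as the list did, at 5.73 to 7.88, 1.77 to 2.40 and 3.52 to 4.05 TPM. The endothelial gene PECAM1 moved alike, at 15.3 to 16.5, 1.28 to 1.61 and 6.52 to 9.83 TPM. The part of these markers in the results was not tested. A pair of libraries stood apart within their groups. JQ1 replicate 3 was the lowest JQ1 library for 70.2% of all tested genes and for 44 of the 57 members. FIDAS-5 replicate 1 was the highest FIDAS-5 library for 74.0% of all tested genes and for 45 members. They also differed in the share of TPM in protein-coding genes. This was 27.6% in JQ1 replicate 3, against 34.0 and 33.5% in JQ1 replicates 1 and 2. It was 33.1% in FIDAS-5 replicate 1, against 28.6 and 28.3% in FIDAS-5 replicates 2 and 3. Vehicle libraries lay at 30.3 to 32.1%. The part of this share in the results was not tested.

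As a group the replication genes were lower with either compound, and lower with FIDAS-5 than with JQ1. They took 0.199% ± 0.00767 of all protein-coding TPM with FIDAS-5, 0.262% ± 0.0146 with JQ1 and 0.430% ± 0.00928 with vehicle (SD, n = 3 each). On this share the groups did not overlap. The FIDAS-5 libraries lay at 0.192 to 0.207%, the JQ1 libraries at 0.246 to 0.274% and the vehicle libraries at 0.420 to 0.438%. As a share of all TPM they lay at 0.0548 to 0.0686%, 0.0680 to 0.0933% and 0.127 to 0.141%. There FIDAS-5 replicate 1 lay just above JQ1 replicate 3, so the treated groups overlapped. With FIDAS-5, 45 members fell and none rose, where 7.6% of all tested genes fell and 12.6% rose (20.2% either way), and the median fold change of the members was -0.96 against -0.02 for all genes. With JQ1, 31 members fell and 2 rose, where 19.4% of all tested genes fell and 19% rose (38.5% either way), and the median was -0.63 against -0.01. In 50 members every FIDAS-5 library lay below every vehicle library, as in 18.4% of all genes. The same held for JQ1 in 34 members, against 26.2% of all genes. In these bulk samples fewer replicating cells and less of each RNA per cell cannot be told apart. Of the called members, 36 of 45 with FIDAS-5 and 25 of 33 with JQ1 stayed called whichever of the 9 libraries was left out. The FIDAS-5 count was 45 without FIDAS-5 replicate 1, where 916 of all 13573 tested genes fell and 1101 rose. The JQ1 count was 28 lower and 3 higher without JQ1 replicate 3, where 2212 of all 13573 fell and 3125 rose.

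**Figure D1:**
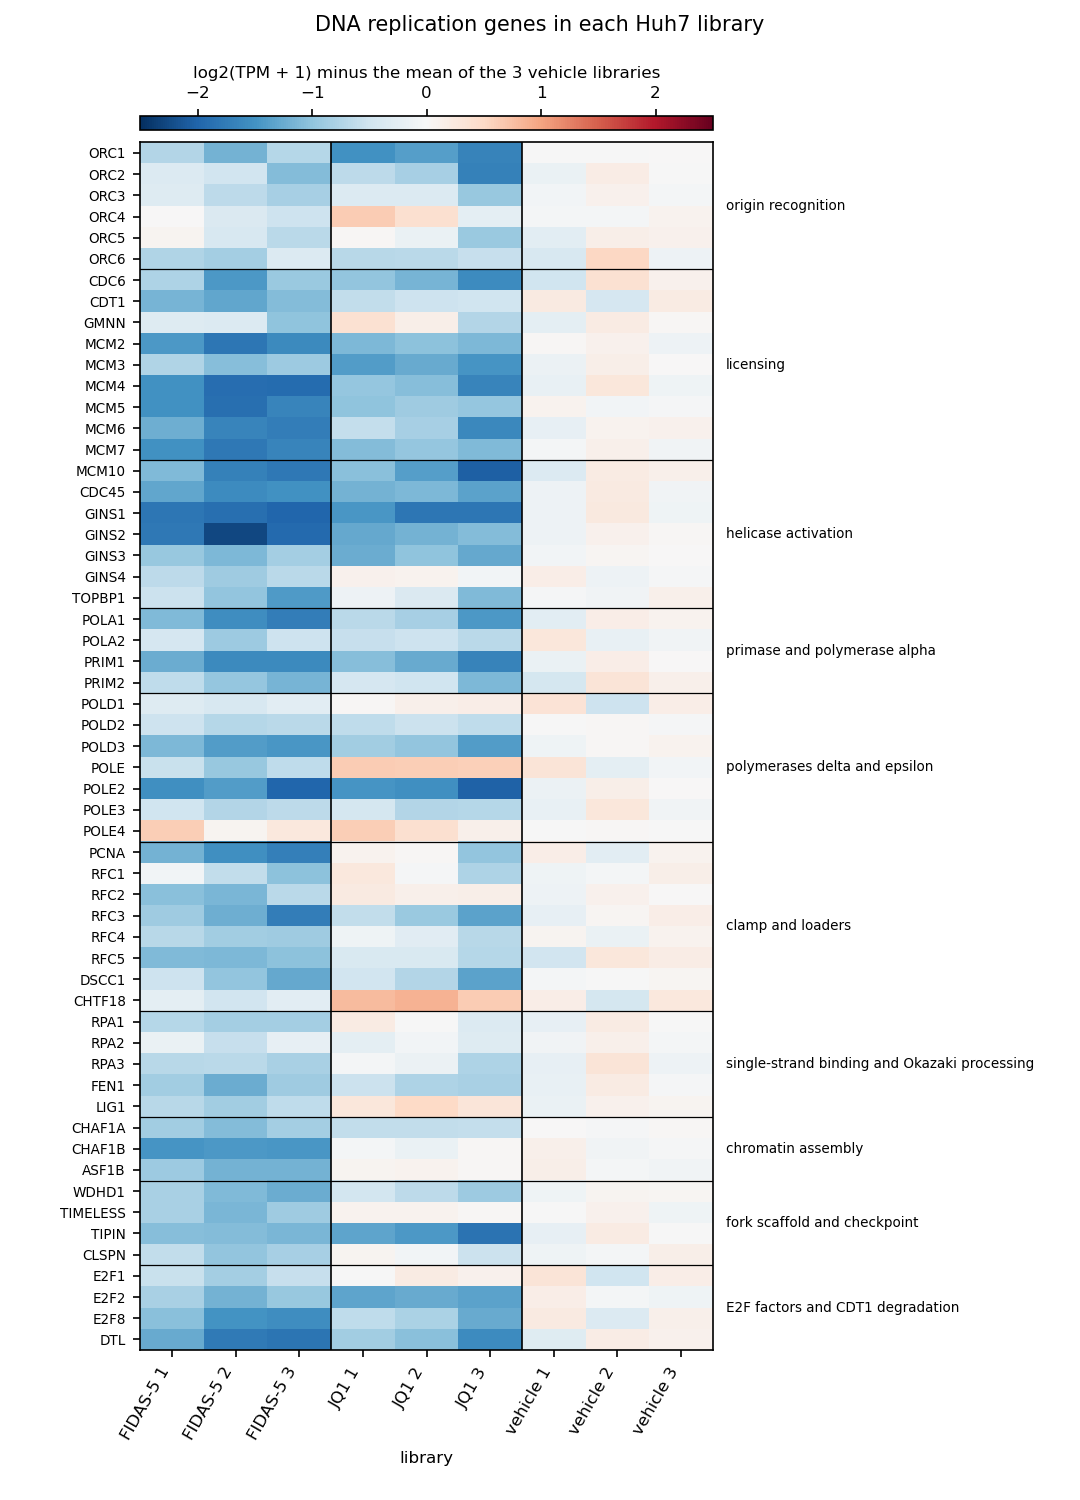
Each row is a replication gene, grouped by role, and each column a library; colour is log2(TPM + 1) minus the mean of the 3 vehicle libraries, blue lower and red higher. The FIDAS-5 columns are blue for 45 called genes, while in the JQ1 columns POLE and CHTF18 are red and JQ1 replicate 3 is the bluest of its group.

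The promoters of 6 genes are shown as examples. GINS2, GINS1, POLE and CHAF1B were picked by their fold changes, and MCM6 and MCM2 for their E2F-type letters. The 6 therefore do not show how common such letters are among the members. Sequences are RefSeq's for GRCh38.p14, from 250 bases before to 50 after the annotated start, on the gene's own strand. Capitals mark matches to the E2F-type letters TTTCCCGC, TTTCGCGC, TTTGCCGC or TTTGGCGC on either strand, and overlapping matches run together. GINS2 (chr16:85688905-85689204, minus strand) and GINS1 (chr20:25407423-25407722, plus strand) had the largest falls with FIDAS-5. MCM6 (chr2:135876394-135876693, minus strand) and MCM2 (chr3:127598161-127598460, plus strand) are ring subunits with overlapping matches. POLE (chr12:132687293-132687592, minus strand) changed in opposite directions with the compounds, and CHAF1B (chr21:36385142-36385441, plus strand), with no match, differed most between them.
GINS2: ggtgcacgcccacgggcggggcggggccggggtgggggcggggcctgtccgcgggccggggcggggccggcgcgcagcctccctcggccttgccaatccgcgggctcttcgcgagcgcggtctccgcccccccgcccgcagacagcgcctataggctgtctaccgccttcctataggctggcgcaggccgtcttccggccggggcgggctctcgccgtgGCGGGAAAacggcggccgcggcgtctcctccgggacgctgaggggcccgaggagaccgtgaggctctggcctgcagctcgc
GINS1: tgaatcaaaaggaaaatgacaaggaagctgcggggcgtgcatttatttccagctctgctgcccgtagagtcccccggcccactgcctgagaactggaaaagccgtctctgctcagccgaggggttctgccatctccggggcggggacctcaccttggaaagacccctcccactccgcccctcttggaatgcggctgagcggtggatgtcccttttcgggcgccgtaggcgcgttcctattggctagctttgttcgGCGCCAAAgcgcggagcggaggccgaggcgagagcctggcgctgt
MCM6: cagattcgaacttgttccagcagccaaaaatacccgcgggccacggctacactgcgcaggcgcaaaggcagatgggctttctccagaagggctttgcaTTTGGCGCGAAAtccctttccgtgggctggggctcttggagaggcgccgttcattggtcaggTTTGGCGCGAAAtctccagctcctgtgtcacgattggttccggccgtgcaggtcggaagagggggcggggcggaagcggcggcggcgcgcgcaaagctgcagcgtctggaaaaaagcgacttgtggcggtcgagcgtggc
MCM2: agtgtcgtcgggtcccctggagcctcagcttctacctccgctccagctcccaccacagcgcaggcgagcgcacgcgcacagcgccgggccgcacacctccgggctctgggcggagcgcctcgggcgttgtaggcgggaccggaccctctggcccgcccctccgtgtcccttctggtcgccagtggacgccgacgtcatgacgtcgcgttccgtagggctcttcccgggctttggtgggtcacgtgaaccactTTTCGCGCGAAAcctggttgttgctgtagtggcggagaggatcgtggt
POLE: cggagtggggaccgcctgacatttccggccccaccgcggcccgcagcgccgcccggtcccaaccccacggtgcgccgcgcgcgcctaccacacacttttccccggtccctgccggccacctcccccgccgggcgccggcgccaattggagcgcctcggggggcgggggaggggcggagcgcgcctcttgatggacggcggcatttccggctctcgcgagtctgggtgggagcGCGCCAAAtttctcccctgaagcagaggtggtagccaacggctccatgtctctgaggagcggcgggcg
CHAF1B: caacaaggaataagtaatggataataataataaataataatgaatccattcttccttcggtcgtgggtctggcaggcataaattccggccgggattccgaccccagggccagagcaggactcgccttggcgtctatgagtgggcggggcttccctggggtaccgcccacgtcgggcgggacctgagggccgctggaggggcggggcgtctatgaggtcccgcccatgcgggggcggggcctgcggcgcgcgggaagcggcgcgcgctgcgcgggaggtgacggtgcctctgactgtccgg
Counted from the annotated start as 1, with -1 before it, the matches begin at -31 in GINS2, at -18 in POLE, at 6 in GINS1 and at 3 and 7 in MCM2. MCM6 holds 4 matches, which begin at -152, -148, -90 and -86 and overlap in pairs. Of the 57 members, 49 have a promoter in the RefSeq table, some with several starts, and 25 of the 49 (51.0%) held at least 1 match at any listed start. The same letters were found for 3.99% of all 27305 genes in that table and for 6.52% of the 9631 tested genes in it. The pentamer CCAAT, the letters of the NF-Y box, was found for 30 of 49 members (61.2%), against 39.7% of all genes and 43.5% of the tested genes. TTTGAA or TTCGAA, the letters of the cell cycle homology region, were found for 3 of 49 members (6.12%), against 19.5% of all genes and 15.8% of the tested genes. The E2F-type letters were found for 21 of 38 members that fell with FIDAS-5 and 4 of 11 not called, and for 16 of 26 members that fell with JQ1 and 8 of 21 not called. These matches describe letters only, and no letters in a window say nothing of what binds there.

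The ORC1 to ORC6 proteins form the origin recognition complex, which marks where replication can start. With FIDAS-5, ORC1 alone of its 6 genes fell, where 7.6% of all tested genes fell. With JQ1 ORC1 and ORC2 did, where 19.4% of all tested genes fell. ORC1, the cycle-regulated ATPase subunit of human ORC, had 9.54, 6.74 and 9.72 TPM with FIDAS-5, 5.15, 5.78 and 4.50 TPM with JQ1 and 16.5, 16.3 and 16.8 TPM with vehicle. The 3 groups were fully apart, and ORC1 was lowest with JQ1. Its fold change was -0.87 (SE 0.15, adjusted p = 0.00474) with FIDAS-5 and -1.52 (SE 0.15, adjusted p = 1.42e-04) with JQ1. ORC2, a core subunit, had 8.73, 7.84 and 4.80 TPM with FIDAS-5, 6.80, 5.96 and 2.80 TPM with JQ1 and 9.97, 12.9 and 11.2 TPM with vehicle. Every treated library lay below every vehicle library, but the fall passed the test only with JQ1 (-1.06, SE 0.29, adjusted p = 0.0191, against -0.63, SE 0.29, adjusted p = 0.164 with FIDAS-5), and the JQ1 call was lost without vehicle replicate 2 or 3 (adjusted p = 0.0652 and 0.0540). ORC4, another core subunit, overlapped in all groups at 9.78, 7.25 and 6.43 TPM with FIDAS-5, 15.5, 13.0 and 7.95 TPM with JQ1 and 9.32, 9.32 and 10.3 TPM with vehicle; its JQ1 value of 0.26 (adjusted p = 0.411) was called higher when replicate 3 of both treated groups was left out (0.51, adjusted p = 0.0409) and with the trend on transcript GC content removed (0.42, adjusted p = 0.00205). ORC3, ORC5 and ORC6 had fold changes of -0.33 to -0.65 with either compound and were not called. ORC3 was called lower with both compounds with the replicate number as a block (adjusted p = 0.0428 with FIDAS-5 and 0.0361 with JQ1), and with FIDAS-5 without FIDAS-5 replicate 1 or JQ1 replicate 3 (adjusted p = 0.0497 and 0.0231), and ORC6 with both compounds without vehicle replicate 1 (adjusted p = 0.0366 with FIDAS-5 and 0.0218 with JQ1).

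The licensing genes fell together. Of the 9, 8 fell with FIDAS-5 (median -1.53) and 8 with JQ1 (median -1.05), where 7.6% and 19.4% of all tested genes fell. The exception with either compound was GMNN, which encodes geminin, the inhibitor that binds CDT1 to prevent relicensing. GMNN had 39.5, 39.0 and 24.0 TPM with FIDAS-5, 64.5, 55.3 and 29.5 TPM with JQ1 and 41.8, 57.6 and 50.5 TPM with vehicle. FIDAS-5 libraries lay below the vehicle ones by a narrow gap and JQ1 libraries on both sides of them, with JQ1 replicate 3 the lowest. Its fold changes were -0.56 (SE 0.30, adjusted p = 0.239) with FIDAS-5 and -0.07 (SE 0.30, adjusted p = 0.884) with JQ1, with a 95% interval of -0.76 to 0.62 for JQ1; without JQ1 replicate 3 the JQ1 value was 0.26 and without vehicle replicate 2 it was 0.04. CDT1, the loader that geminin restrains, averaged 4.16 ± 0.395 TPM with FIDAS-5, 7.06 ± 0.321 TPM with JQ1 and 11.0 ± 2.82 TPM with vehicle (SD, n = 3 each). It fell by 1.19 with FIDAS-5 (SE 0.18, adjusted p = 0.00241) and by 0.54 with JQ1 (SE 0.18, adjusted p = 0.0424), a JQ1 call lost on leaving out any treated library, or vehicle replicate 1 or 3, with adjusted p = 0.0581 to 0.145. That JQ1 call held in 6 of 21 alternatives. It was also lost with pseudocount 0.1, no filter, protein-coding scaling, quantile normalization and the fit on 6 libraries (adjusted p = 0.0511 to 0.0819). CDC6, the ATPase that works with ORC to load the ring, averaged 15.6 ± 3.80 TPM with FIDAS-5, 13.5 ± 2.90 TPM with JQ1 and 33.8 ± 10.1 TPM with vehicle. Its fold changes were -1.05 with FIDAS-5 and -1.24 with JQ1 (SE 0.27, adjusted p = 0.0254 and 0.00654), and the FIDAS-5 call was lost without FIDAS-5 replicate 2 or 3 or vehicle replicate 2 or 3 (adjusted p = 0.0583 to 0.0876).

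All 6 genes of the MCM ring, the motor of the replicative helicase, fell with both compounds. MCM5 had 16.2, 12.4 and 14.6 TPM with FIDAS-5, 23.7, 25.7 and 24.1 TPM with JQ1 and 51.5, 46.1 and 47.2 TPM with vehicle. MCM7 had 39.5, 32.4 and 36.0 TPM with FIDAS-5, 53.4, 58.1 and 52.6 TPM with JQ1 and 111, 125 and 108 TPM with vehicle. In both genes the 3 groups were apart, with FIDAS-5 lowest. MCM5 fell by 1.68 with FIDAS-5 (SE 0.13, adjusted p = 7.14e-05) and by 0.95 with JQ1 (SE 0.13, adjusted p = 6.14e-04). MCM7 fell by 1.65 with FIDAS-5 (SE 0.12, adjusted p = 6.96e-05) and by 1.05 with JQ1 (SE 0.12, adjusted p = 3.01e-04). MCM2, MCM4 and MCM6 had fold changes of -1.61, -1.78 and -1.53 with FIDAS-5 and of -1.09, -1.23 and -1.01 with JQ1; the MCM6 call with JQ1 was lost without vehicle replicate 3 (adjusted p = 0.0521). MCM3 alone of the ring ran the other way between the compounds. It had 55.5, 44.9 and 50.2 TPM with FIDAS-5, 35.2, 38.8 and 33.4 TPM with JQ1 and 84.9, 104 and 95.5 TPM with vehicle, so that JQ1 was lowest with no overlap. It fell by 0.91 with FIDAS-5 (SE 0.14, adjusted p = 0.00215) and by 1.38 with JQ1 (SE 0.14, adjusted p = 1.17e-04).

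The subunits assemble in equal numbers in the ring, and the makeup of their RNA differed between the groups. MCM3 held 34.3% ± 0.760 of the summed TPM of the 6 genes with FIDAS-5, 19.6% ± 0.859 with JQ1 and 23.1% ± 1.16 with vehicle (SD, n = 3 each). It was the most abundant of the 6 in each FIDAS-5 library, whereas MCM7 was the most abundant in each JQ1 and vehicle library. MCM7 held 24.6% ± 0.664 with FIDAS-5, 29.9% ± 1.90 with JQ1 and 28.0% ± 0.653 with vehicle. MCM6 was the least abundant in all 9 libraries, at 5.48 to 6.96% of the sum with FIDAS-5, 5.19 to 9.66% with JQ1 and 6.27 to 7.72% with vehicle. The sum itself was 130 to 166 TPM with FIDAS-5, 165 to 196 TPM with JQ1 and 388 to 447 TPM with vehicle.

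**Figure D2:**
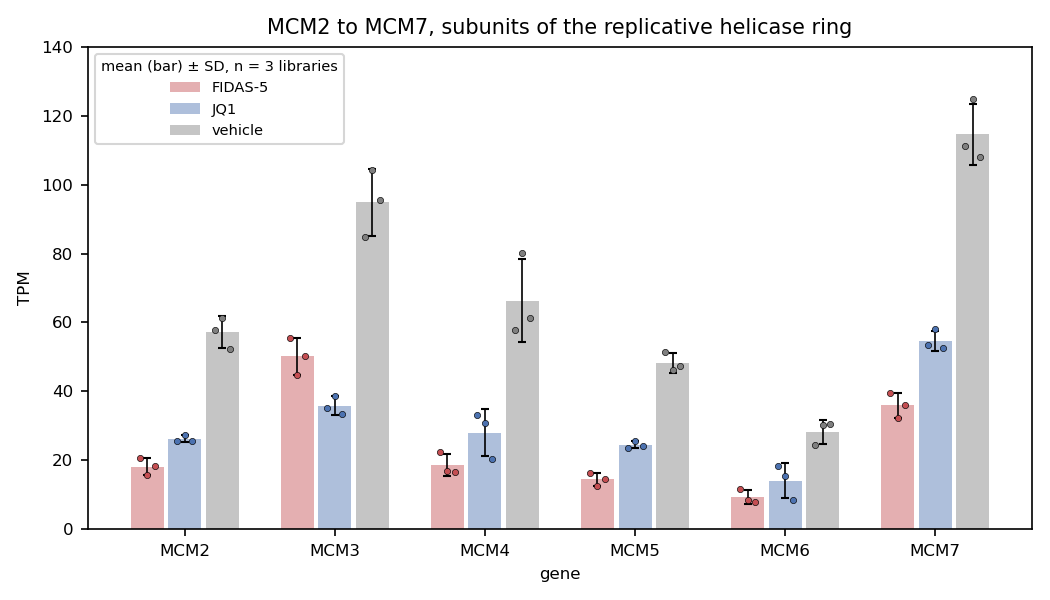
Bars are mean TPM of the 6 ring subunits with SD over 3 libraries, and points are libraries; the groups run FIDAS-5, JQ1 and vehicle for each gene. MCM3 is the only subunit whose FIDAS-5 bar stands above its JQ1 bar, 50.2 against 35.8 TPM, and every vehicle bar is the tallest of its gene.

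Of the genes that turn the loaded ring into a working helicase, all 7 fell with FIDAS-5 (median -1.46) and 5 of 7 fell with JQ1 (median -1.18). The shares that fell over all tested genes were 7.6% and 19.4%. GINS1, a GINS subunit also known as PSF1, had 8.05, 7.54 and 6.99 TPM with FIDAS-5, 10.5, 8.05 and 8.0 TPM with JQ1 and 27.7, 36.2 and 28.2 TPM with vehicle. All treated libraries lay far below all vehicle libraries. Its fold changes were -1.89 with FIDAS-5 and -1.69 with JQ1 (SE 0.15, adjusted p = 9.49e-05 and 8.48e-05), and the difference JQ1 minus FIDAS-5 of 0.20 had a 95% interval of -0.15 to 0.55. GINS2, or PSF2, had 7.45, 5.07 and 6.62 TPM with FIDAS-5, 11.1, 12.0 and 12.8 TPM with JQ1 and 26.0, 30.4 and 28.8 TPM with vehicle. It fell by 2.0 with FIDAS-5, the most of any member (SE 0.15, adjusted p = 6.32e-05), and by 1.18 with JQ1 (SE 0.15, adjusted p = 4.21e-04). GINS4, or SLD5, had 4.34, 3.53 and 4.26 TPM with FIDAS-5, 8.07, 7.99 and 7.02 TPM with JQ1 and 8.46, 6.70 and 7.26 TPM with vehicle. The FIDAS-5 libraries were below all others, and the JQ1 and vehicle libraries overlapped. Its fold changes were -0.75 with FIDAS-5 (SE 0.13, adjusted p = 0.00472) and 0.04 with JQ1 (95% interval -0.26 to 0.34, adjusted p = 0.834); without vehicle replicate 2 the JQ1 value was -0.03.

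CDC45, MCM10 and GINS3 fell with both compounds, and TOPBP1 with FIDAS-5. CDC45, the partner of MCM and GINS in the active helicase, averaged 5.49 ± 0.701 TPM with FIDAS-5, 6.67 ± 0.591 TPM with JQ1 and 16.9 ± 2.47 TPM with vehicle (SD, n = 3 each). MCM10, needed for the helicase to start, averaged 3.12 ± 1.13 TPM with FIDAS-5, 3.30 ± 1.40 TPM with JQ1 and 10.8 ± 2.25 TPM with vehicle. Their fold changes were -1.46 and -1.53 with FIDAS-5 and -1.22 and -1.49 with JQ1, all called. GINS3, or PSF3, changed by -0.97 with FIDAS-5 and -1.18 with JQ1. TOPBP1, a scaffold for helicase assembly and checkpoint signalling, had 7.40, 5.19 and 3.60 TPM with FIDAS-5, 10.2, 8.62 and 4.71 TPM with JQ1 and 11.0, 10.6 and 12.3 TPM with vehicle. Replicate 3 was the lowest library of both treated groups. Its FIDAS-5 fold change of -0.98 (SE 0.28, adjusted p = 0.0389) lost its call without FIDAS-5 replicate 2 or 3, JQ1 replicate 2 or any vehicle library (adjusted p = 0.0581 to 0.132), and its JQ1 value of -0.53 was not called (adjusted p = 0.172).

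**Figure D3:**
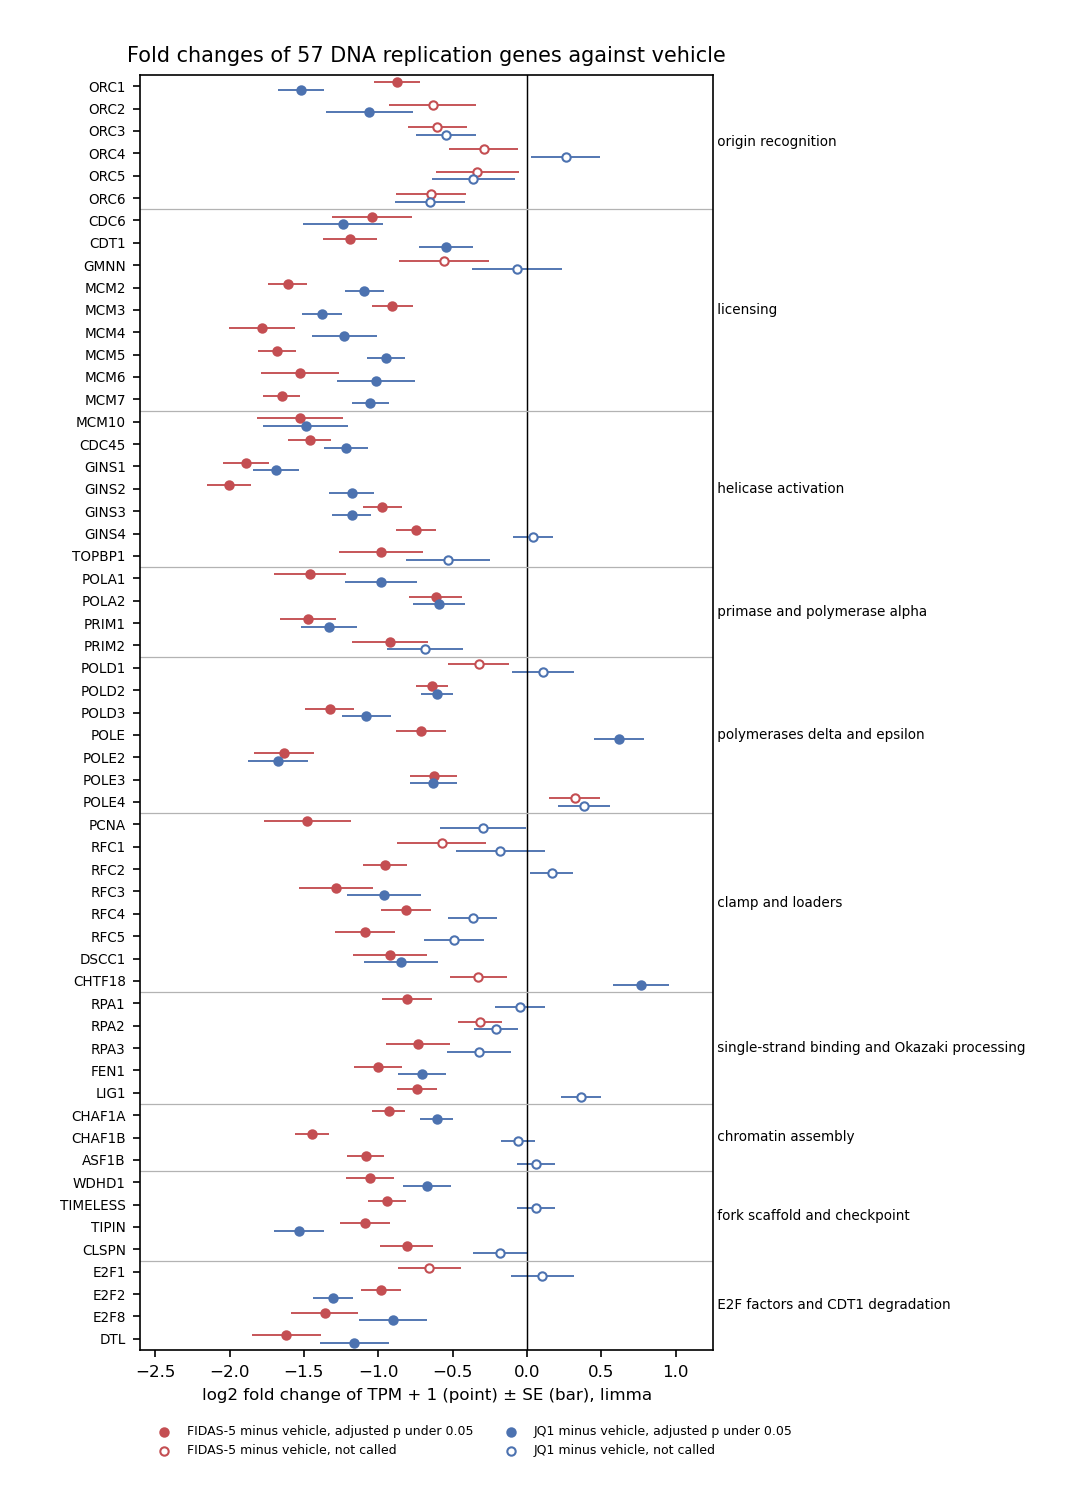
Points are log2 fold changes of TPM + 1 with SE bars for each gene, FIDAS-5 minus vehicle in red and JQ1 minus vehicle in blue, filled where the adjusted p was under 0.05. Most points lie left of 0, and POLE and CHTF18 are the filled points right of 0, both for JQ1.

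Polymerase alpha, which starts each strand, and its primase fell with both compounds, except that PRIM2 was not called with JQ1. PRIM1, the catalytic primase subunit, had 10.3, 7.94 and 7.88 TPM with FIDAS-5, 11.9, 10.2 and 7.36 TPM with JQ1 and 22.7, 28.9 and 26.0 TPM with vehicle. POLA1, the catalytic polymerase subunit, had 4.27, 2.84 and 2.42 TPM with FIDAS-5, 6.10, 5.32 and 3.17 TPM with JQ1 and 8.39, 11.7 and 11.0 TPM with vehicle. Treated libraries of both genes lay below all vehicle libraries and overlapped each other. PRIM1 changed by -1.47 with FIDAS-5 (SE 0.19, adjusted p = 9.71e-04) and -1.33 with JQ1 (SE 0.19, adjusted p = 7.55e-04), and POLA1 by -1.46 and -0.98 (SE 0.24, adjusted p = 0.00347 and 0.0119). PRIM2, the regulatory primase subunit, had 6.96, 5.30 and 4.54 TPM with FIDAS-5, 8.23, 7.72 and 4.66 TPM with JQ1 and 8.16, 14.4 and 12.4 TPM with vehicle. Vehicle replicate 1 lay just below the highest JQ1 library. The PRIM2 FIDAS-5 value was -0.92 (SE 0.26, adjusted p = 0.0343), not called without FIDAS-5 replicate 2 or 3, JQ1 replicate 2 or vehicle replicate 2 or 3 (adjusted p = 0.0516 to 0.119), and its JQ1 value was -0.68 (adjusted p = 0.0629), called without vehicle replicate 1 (adjusted p = 0.0250). POLA2, the accessory subunit, changed by -0.61 with FIDAS-5 and -0.59 with JQ1 (adjusted p = 0.0387 and 0.0266). These POLA2 calls were not stable. That with FIDAS-5 was lost without FIDAS-5 replicate 2 or 3, JQ1 replicate 1 or 2 or vehicle replicate 1 or 3 (adjusted p = 0.0568 to 0.112), and that with JQ1 on leaving out vehicle replicate 1, vehicle replicate 3 or any JQ1 library, with adjusted p = 0.0538 to 0.0754.

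The polymerases that extend the strands were mixed. POLE, the catalytic subunit of the leading-strand polymerase epsilon, was called lower with FIDAS-5 and higher with JQ1. It had 4.48, 3.19 and 4.16 TPM with FIDAS-5, 11.5, 11.3 and 11.2 TPM with JQ1 and 9.01, 5.80 and 6.68 TPM with vehicle. The 3 groups did not overlap, with vehicle in the middle. Its fold changes were -0.71 with FIDAS-5 and 0.62 with JQ1 (SE 0.17, adjusted p = 0.0175 and 0.0187). The FIDAS-5 call was lost without FIDAS-5 replicate 2 (adjusted p = 0.0593) or vehicle replicate 3 (adjusted p = 0.0510), and the JQ1 call without JQ1 replicate 2, vehicle replicate 2 or vehicle replicate 3 (adjusted p = 0.0549, 0.0583 and 0.0654). POLE2, a noncatalytic subunit of the same enzyme, did not follow it. POLE2 had 3.58, 4.05 and 2.36 TPM with FIDAS-5, 3.78, 3.58 and 2.26 TPM with JQ1 and 11.0, 13.6 and 12.3 TPM with vehicle, falling by 1.63 and by 1.68 (SE 0.20, adjusted p = 8.36e-04 and 3.40e-04). In vehicle libraries POLE2 thus stood above POLE, and in JQ1 libraries below it.

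POLE3 and POLE4 are the histone-fold subunits of polymerase epsilon. POLE3 changed by -0.63 with either compound and was called with both (adjusted p = 0.0226 with FIDAS-5 and 0.0125 with JQ1). The FIDAS-5 call was lost without FIDAS-5 replicate 2 or 3 or vehicle replicate 2 or 3 (adjusted p = 0.0547 to 0.0766), and the JQ1 call without JQ1 replicate 2 (adjusted p = 0.0510). POLE4 was the only member whose FIDAS-5 libraries all lay above the vehicle libraries, at 16.2, 10.9 and 12.5 TPM with FIDAS-5, 16.2, 13.8 and 11.4 TPM with JQ1 and 10.1, 10.5 and 10.1 TPM with vehicle; 20.9% of all genes did so. Its fold changes of 0.32 and 0.38 were not called (adjusted p = 0.113 with JQ1, and 0.0499 without JQ1 replicate 3). In polymerase delta, which works mainly on the lagging strand, POLD3 had 1.86, 1.38 and 1.27 TPM with FIDAS-5, 2.41, 2.17 and 1.38 TPM with JQ1 and 4.81, 5.35 and 5.59 TPM with vehicle. It fell by 1.33 with FIDAS-5 (SE 0.17, adjusted p = 8.56e-04) and by 1.08 with JQ1 (SE 0.17, adjusted p = 0.00114). POLD2 averaged 46.4 TPM with FIDAS-5, 47.5 TPM with JQ1 and 72.7 TPM with vehicle, and was called lower with both (-0.64 and -0.61). The catalytic subunit POLD1 had 4.93, 4.59 and 5.18 TPM with FIDAS-5, 6.53, 7.07 and 7.28 TPM with JQ1 and 8.41, 4.18 and 7.25 TPM with vehicle, where vehicle replicate 2 was the lowest of all 9. Its fold changes of -0.32 and 0.11 were not called; without vehicle replicate 2 they were -0.58 (adjusted p = 0.0184) and -0.15.

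PCNA, the clamp that holds the polymerases on DNA, had the highest mean TPM of the members in every group, though with FIDAS-5 the mean of MCM3, 50.2 TPM, lay within its spread. It had 63.2, 48.9 and 43.0 TPM with FIDAS-5, 153, 146 and 71.99 TPM with JQ1 and 162, 120 and 153 TPM with vehicle. The FIDAS-5 libraries were below all others, and of the JQ1 libraries replicates 1 and 2 lay within the vehicle range and replicate 3 below it. PCNA fell by 1.48 with FIDAS-5 (SE 0.29, adjusted p = 0.00780). Its JQ1 value was -0.29 (95% interval -0.95 to 0.36, adjusted p = 0.457), and 0.05 without JQ1 replicate 3. The loaders that open the clamp were less alike. Among the RFC genes, RFC2, RFC3, RFC4 and RFC5 fell with FIDAS-5, by 0.81 to 1.28, and RFC3 alone fell with JQ1, by 0.96 (adjusted p = 0.0145, and 0.0550 without vehicle replicate 3). RFC2 had 5.50, 5.05 and 7.32 TPM with FIDAS-5, 14.6, 13.5 and 13.8 TPM with JQ1 and 11.2, 13.4 and 12.5 TPM with vehicle. The JQ1 libraries lay just above the vehicle ones, at a fold change of 0.17 (95% interval -0.17 to 0.50), while the FIDAS-5 value was -0.96 (SE 0.15, adjusted p = 0.00242). RFC5 averaged 6.31 ± 0.264 TPM with FIDAS-5, 10.1 ± 1.41 TPM with JQ1 and 14.96 ± 4.18 TPM with vehicle, and its JQ1 value of -0.49 (adjusted p = 0.0888) was called without vehicle replicate 1 (adjusted p = 0.00671). RFC1, the large subunit, had 8.63, 5.58 and 4.0 TPM with FIDAS-5, 11.2, 8.95 and 4.91 TPM with JQ1 and 8.39, 8.86 and 10.3 TPM with vehicle, overlapping throughout.

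CHTF18 and DSCC1 form an alternative loader with the small RFC subunits, and they did not move alike. CHTF18 had 1.57, 1.20 and 1.56 TPM with FIDAS-5, 4.27, 4.61 and 3.78 TPM with JQ1 and 2.45, 1.26 and 2.68 TPM with vehicle. The JQ1 libraries were above all others. CHTF18 rose by 0.77 with JQ1 (SE 0.19, adjusted p = 0.0123), the largest rise of any member, and its FIDAS-5 value was -0.33 (adjusted p = 0.267), or -0.55 without vehicle replicate 2 (adjusted p = 0.0315). DSCC1 averaged 1.56 TPM with FIDAS-5, 1.71 TPM with JQ1 and 3.73 TPM with vehicle, and was called lower with both compounds (-0.92 and -0.85, adjusted p = 0.0308 and 0.0252). Neither DSCC1 call survived every omission. The FIDAS-5 call was lost without FIDAS-5 replicate 2 or 3 or any vehicle library (adjusted p = 0.0602 to 0.110), and the JQ1 call without JQ1 replicate 2 or 3 or any vehicle library (adjusted p = 0.0512 to 0.0744).

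Of the single-strand binding and Okazaki genes, 4 of 5 fell with FIDAS-5, where 7.6% of all tested genes fell. With JQ1 1 of 5 fell, near the 19.4% of all tested genes. FEN1, the nuclease that trims Okazaki flaps, had 24.8, 19.0 and 24.4 TPM with FIDAS-5, 31.5, 26.7 and 26.0 TPM with JQ1 and 40.5, 53.6 and 45.5 TPM with vehicle. It fell by 1.0 with FIDAS-5 and by 0.71 with JQ1 (SE 0.16, adjusted p = 0.00288 and 0.00800). LIG1, the ligase that seals the fragments, had 0.945, 0.722 and 1.03 TPM with FIDAS-5, 2.87, 3.47 and 2.87 TPM with JQ1 and 1.81, 2.41 and 2.30 TPM with vehicle. The groups were apart, with JQ1 highest. LIG1 fell by 0.74 with FIDAS-5 (SE 0.13, adjusted p = 0.00510), and its JQ1 value of 0.36 was not called (adjusted p = 0.0591). Of the trimer that coats single strands, RPA1 averaged 7.11 TPM with FIDAS-5, 12.9 TPM with JQ1 and 13.3 TPM with vehicle. RPA1 and RPA3 fell by 0.81 and 0.73 with FIDAS-5, the RPA3 call being lost on leaving out any FIDAS-5 library, JQ1 replicate 2 or vehicle replicate 2 or 3 (adjusted p = 0.0606 to 0.127). RPA2 had 8.47, 6.12 and 8.21 TPM with FIDAS-5, 7.95, 9.09 and 7.52 TPM with JQ1 and 9.0, 10.6 and 9.31 TPM with vehicle, and was not called with either (-0.31 and -0.21).

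The histone chaperones that rebuild chromatin behind the fork all fell with FIDAS-5, where 7.6% of all tested genes fell. Of the 3, CHAF1A alone fell with JQ1, where 19.4% of all tested genes fell. CHAF1B, the middle subunit of chromatin assembly factor 1, had 1.69, 1.76 and 1.72 TPM with FIDAS-5, 6.22, 5.65 and 6.57 TPM with JQ1 and 7.07, 5.97 and 6.32 TPM with vehicle. FIDAS-5 libraries were far below the rest, and JQ1 and vehicle libraries overlapped. Its fold change was -1.45 with FIDAS-5 (SE 0.11, adjusted p = 8.14e-05) and -0.06 with JQ1 (95% interval -0.32 to 0.20, adjusted p = 0.707). CHAF1A, the large subunit of the same complex, had 3.61, 2.97 and 3.64 TPM with FIDAS-5, 4.47, 4.48 and 4.54 TPM with JQ1 and 7.41, 7.19 and 7.51 TPM with vehicle. It fell by 0.93 with FIDAS-5 (SE 0.11, adjusted p = 7.23e-04) and by 0.61 with JQ1 (SE 0.11, adjusted p = 0.00294), in groups that were fully apart. ASF1B, which hands histones H3 and H4 to that factor, had 19.9, 16.4 and 16.3 TPM with FIDAS-5, 40.2, 40.7 and 39.0 TPM with JQ1 and 42.3, 37.0 and 35.7 TPM with vehicle. It changed by -1.09 with FIDAS-5 (SE 0.13, adjusted p = 6.36e-04) and 0.06 with JQ1 (95% interval -0.23 to 0.35).

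The fork protection pair, TIMELESS and TIPIN, which bind each other at the fork, parted with JQ1. TIMELESS had 8.33, 6.41 and 7.83 TPM with FIDAS-5, 16.2, 16.3 and 15.5 TPM with JQ1 and 15.2, 16.7 and 14.1 TPM with vehicle. TIPIN had 4.41, 4.33 and 4.13 TPM with FIDAS-5, 3.54, 3.15 and 2.12 TPM with JQ1 and 8.72, 12.0 and 10.2 TPM with vehicle. JQ1 libraries thus lay within the vehicle range for TIMELESS and were the lowest of all for TIPIN. TIMELESS changed by -0.94 with FIDAS-5 (SE 0.13, adjusted p = 0.00139) and 0.06 with JQ1 (95% interval -0.23 to 0.35), and TIPIN by -1.09 and -1.53 (SE 0.17, adjusted p = 0.00257 and 2.16e-04). WDHD1, which links the helicase to polymerase alpha, fell by 1.05 with FIDAS-5 and by 0.67 with JQ1. CLSPN, the checkpoint mediator claspin, had 1.58, 0.985 and 1.21 TPM with FIDAS-5, 3.11, 2.77 and 1.71 TPM with JQ1 and 2.68, 2.82 and 3.35 TPM with vehicle. Its FIDAS-5 value of -0.81 (adjusted p = 0.0139) was not called without FIDAS-5 replicate 2 or 3 or vehicle replicate 3 (adjusted p = 0.0515, 0.0503 and 0.0614), and its JQ1 value of -0.18 was not called.

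Of the E2F genes, which encode the transcription factors that act on many of the other members, E2F2 and E2F8 fell with both compounds and E2F1 with neither. E2F1, an activator, had 8.86, 7.12 and 8.79 TPM with FIDAS-5, 13.4, 15.8 and 14.7 TPM with JQ1 and 17.3, 9.30 and 15.3 TPM with vehicle. FIDAS-5 libraries lay below all others, and vehicle replicate 2 lay below all JQ1 libraries. Its FIDAS-5 value was -0.66 (SE 0.21, adjusted p = 0.0586), or -0.91 without vehicle replicate 2 (adjusted p = 0.00620), and its JQ1 value was 0.10 (95% interval -0.38 to 0.58), or -0.15 without that library. E2F2, also an activator, had 1.36, 0.834 and 1.17 TPM with FIDAS-5, 0.677, 0.735 and 0.652 TPM with JQ1 and 3.66, 3.04 and 2.85 TPM with vehicle. It fell by 0.98 with FIDAS-5 and by 1.30 with JQ1 (SE 0.14, adjusted p = 0.00146 and 1.58e-04). E2F8, a repressor of the family, averaged 1.24 TPM with FIDAS-5, 2.09 TPM with JQ1 and 4.76 TPM with vehicle. DTL, the adaptor that marks CDT1 for destruction on PCNA-bound DNA, had 4.63, 2.99 and 2.83 TPM with FIDAS-5, 6.41, 5.58 and 3.56 TPM with JQ1 and 10.00, 14.5 and 13.6 TPM with vehicle. It fell by 1.62 with FIDAS-5 and by 1.16 with JQ1 (SE 0.23, adjusted p = 0.00180 and 0.00452).

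The compounds were then compared directly. With JQ1, 18 members were higher than with FIDAS-5 and 2 were lower, where 16.4% of all tested genes were higher and 18.5% lower (34.8% either way); the members' median difference was 0.41 against 0.05 for all genes. In 21 members every JQ1 library lay above every FIDAS-5 library, against 22.7% of all genes, and in 4 below, against 25%. The compounds differ in target and dose, so the differences are between these treatments as given. CHAF1B differed most, by 1.39 (SE 0.11, adjusted p = 3.47e-05). ASF1B, LIG1, POLE, TIMELESS and RFC2 followed by adjusted p, with differences of 1.15, 1.10, 1.33, 1.0 and 1.12 (adjusted p = 1.81e-04, 3.05e-04, 4.04e-04, 4.43e-04 and 4.77e-04). GINS4 and CHTF18 differed by 0.79 and 1.10 (adjusted p = 0.00193 and 0.00237). These 8 genes were called whichever library was left out. ORC1 and MCM3 were the members lower with JQ1 than with FIDAS-5, at differences of -0.64 (adjusted p = 0.0115) and -0.47 (adjusted p = 0.0244). The ORC1 call was lost when replicate 3 of both groups was left out (adjusted p = 0.0758), and the MCM3 call was lost when replicate 1 or 3 of either group was left out singly (adjusted p = 0.0545 to 0.0771). PCNA differed by 1.18 (SE 0.29, adjusted p = 0.0127), and 1.03 without JQ1 replicate 2 (adjusted p = 0.0512). Without JQ1 replicate 3 the count was 29 higher and 1 lower, where 3246 of all 13573 tested genes were higher and 2189 lower. Without JQ1 replicate 2 it was 12 higher and 2 lower, where 1369 of all 13573 were higher and 2025 lower. With the trend of fold change on transcript GC content removed it was 31 higher and 5 lower. In that setting 3333 of all 13042 tested genes were higher and 3409 lower.

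**Figure D4:**
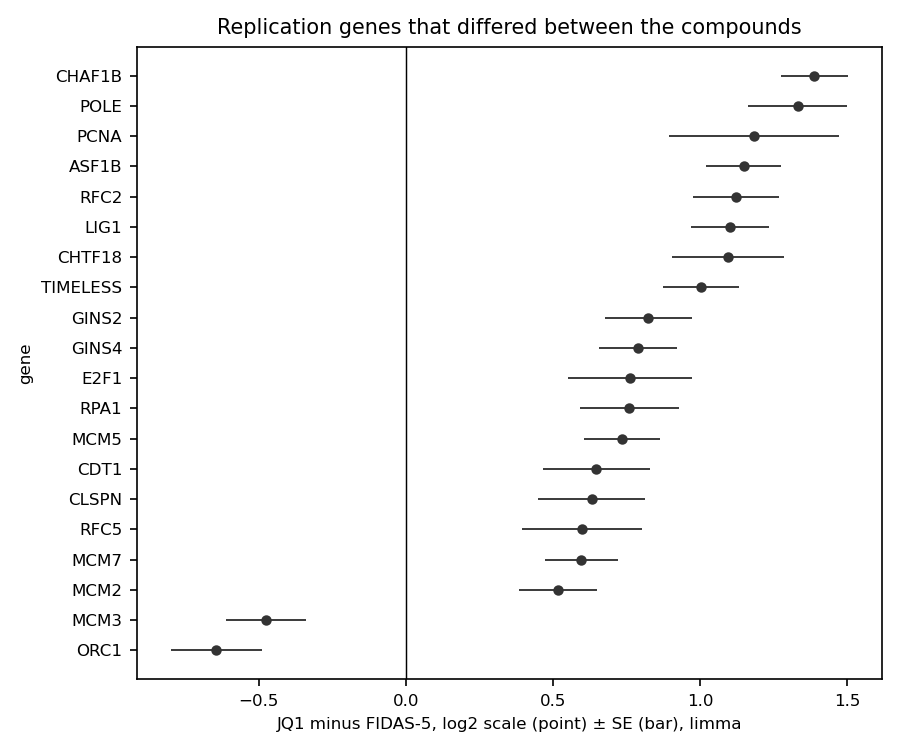
Points are the JQ1 minus FIDAS-5 differences on the log2(TPM + 1) scale with SE bars for the 20 called replication genes. CHAF1B is at the top with 1.39, and MCM3 and ORC1 at the bottom are the only genes left of 0.

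**Figure D5:**
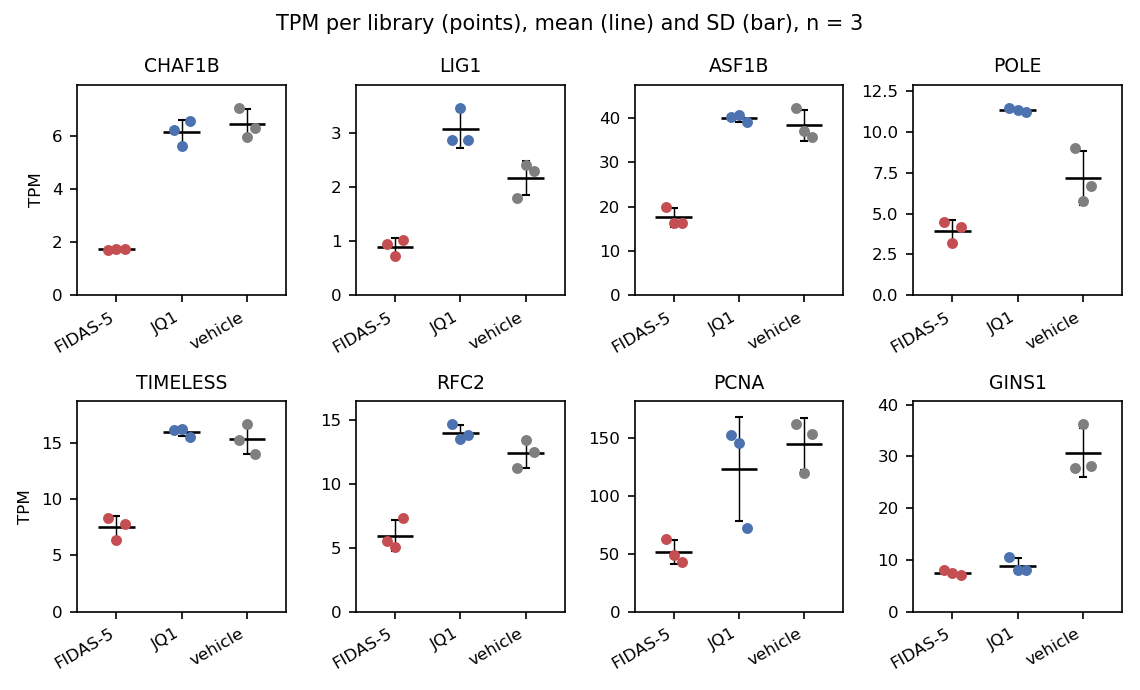
Each panel shows TPM per library (points), the mean (line) and the SD (bar, n = 3) for 8 replication genes, with FIDAS-5, JQ1 and vehicle from left to right. In CHAF1B, ASF1B and TIMELESS the JQ1 points sit with the vehicle points, in POLE above them, and in GINS1 with the FIDAS-5 points.

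By role, the direct difference rests on few genes each. The shares over all tested genes were 16.4% higher and 18.5% lower with JQ1, with a median difference of 0.05. Clamp and loader genes were higher with JQ1 in 4 of 8 cases (median difference 0.52), and chromatin assembly genes in 2 of 3 (median 1.15). None of the 4 genes of primase and polymerase alpha was called, at differences of 0.02 to 0.48. In the licensing group MCM2, MCM5, MCM7 and CDT1 were higher with JQ1, by 0.52 to 0.73. The CDT1 call was lost without JQ1 replicate 2 or FIDAS-5 replicate 1 or 2 (adjusted p = 0.0517 to 0.0791), and that of MCM2 without FIDAS-5 replicate 2 (adjusted p = 0.0532) or JQ1 replicate 2 (adjusted p = 0.0632). E2F1 was higher by 0.76 (adjusted p = 0.0219), but not without FIDAS-5 replicate 2 or JQ1 replicate 2 (adjusted p = 0.0802 and 0.0756). CLSPN was higher by 0.63 (adjusted p = 0.0250), but not without JQ1 replicate 1 or 2, FIDAS-5 replicate 2 or FIDAS-5 replicate 3 (adjusted p = 0.0699 to 0.0897). The RFC5 difference of 0.60 (adjusted p = 0.0491) was called in 7 of 21 alternatives. The call was lost on leaving out any FIDAS-5 library, JQ1 replicate 1 or 2 or vehicle replicate 3 (adjusted p = 0.0644 to 0.139). The replicate number as a block also lost it (adjusted p = 0.0574). So did pseudocount 0.1, no filter, a filter at 5 TPM, median-of-ratios scaling and moderation with a trend (adjusted p = 0.0513 to 0.0722). POLE2, MCM10 and PRIM1 differed by -0.04, 0.04 and 0.14, with 95% intervals of -0.50 to 0.42, -0.61 to 0.69 and -0.29 to 0.57.

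The falls were also set against the vehicle mean. With FIDAS-5, 35 members were under 50% of their vehicle mean TPM, and with JQ1 22 were. This count was not made over all tested genes. The lowest were GINS2 at 22.5% with FIDAS-5 and E2F2 at 21.6% with JQ1. GINS1, at 24.5% and 28.8%, and POLE2, at 27.1% and 26.1%, were low with both FIDAS-5 and JQ1. The median member stood at 46.2% of vehicle with FIDAS-5 and 61.0% with JQ1. Transcript GC content, with which fold changes ran across all tested genes (Spearman 0.372 with FIDAS-5 and 0.215 with JQ1), had a median of 48.1% in members and 49.4% in all tested genes. Across the 57 members, which share libraries, the same coefficient was -0.007 with FIDAS-5 and 0.232 with JQ1. For the JQ1 minus FIDAS-5 difference it was 0.347 in members and -0.045 in all tested genes.

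Of 27 further replication factors, 16 fell and 1 rose with FIDAS-5 (median -0.67), where 7.6% of all tested genes fell and 12.6% rose. With JQ1 10 fell and 2 rose (median -0.44), where 19.4% of all tested genes fell and 19% rose. The FIDAS-5 count of falls was 8, 9, 10 and 7 without FIDAS-5 replicate 2, FIDAS-5 replicate 3, vehicle replicate 2 and vehicle replicate 3. In these settings 622, 548, 749 and 567 of all 13573 tested genes fell. POLD4, the smallest subunit of polymerase delta, was the exception. It had 37.2, 32.6 and 37.3 TPM with FIDAS-5, 12.0, 11.9 and 12.3 TPM with JQ1 and 7.51, 6.48 and 6.84 TPM with vehicle. No library of any group overlapped another group, and POLD4 rose by 2.21 with FIDAS-5 (SE 0.11, adjusted p = 1.25e-05) and by 0.72 with JQ1 (SE 0.11, adjusted p = 0.00140). By mean TPM it thus stood above POLD1 and POLD3 in all groups, within the spread of POLD1 in vehicle libraries. The nuclease DNA2, the PCNA partner PCLAF and the methylation reader UHRF1 fell with both compounds, by 1.59, 1.56 and 1.21 with FIDAS-5 and by 1.03, 1.12 and 0.80 with JQ1. ATAD5, which unloads PCNA, fell by 1.03 with FIDAS-5 and by 0.50 with JQ1, a JQ1 call lost without FIDAS-5 replicate 2, JQ1 replicate 2 or 3 or vehicle replicate 1 or 3 (adjusted p = 0.0542 to 0.120). RNASEH2C, a subunit of the nuclease that removes ribonucleotides from DNA, was called higher with JQ1 (0.37, adjusted p = 0.0264) and lower with FIDAS-5 (-0.41, adjusted p = 0.0287). The JQ1 call was lost on leaving out any JQ1 library or vehicle replicate 3 (adjusted p = 0.0574 to 0.0995), and the FIDAS-5 call without FIDAS-5 replicate 2 or 3, JQ1 replicate 2 or any vehicle library (adjusted p = 0.0539 to 0.110).

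Of 17 genes for other E2F and DP proteins, pocket proteins, G1 cyclins and their kinases, 7 fell and none rose with FIDAS-5 (median -0.48), and 9 fell and 1 rose with JQ1 (median -0.70). Over all tested genes 7.6% fell and 12.6% rose with FIDAS-5, and 19.4% fell and 19% rose with JQ1. CCND1, which encodes cyclin D1, had 68.6, 53.8 and 53.0 TPM with FIDAS-5, 22.7, 19.0 and 14.7 TPM with JQ1 and 49.1, 44.7 and 46.9 TPM with vehicle. The JQ1 libraries were lowest and the FIDAS-5 libraries highest, with a fall of 1.29 with JQ1 (SE 0.17, adjusted p = 6.07e-04) and an uncalled 0.30 with FIDAS-5 (adjusted p = 0.263). CDC25A, the phosphatase that activates CDK2, CDK2 itself and CDK4 fell with both, by 0.90, 1.16 and 0.78 with FIDAS-5 and by 1.36, 0.87 and 0.73 with JQ1. E2F7, a repressor like E2F8, fell by 1.23 with FIDAS-5 (adjusted p = 0.00182), and its JQ1 value of -0.43 (adjusted p = 0.0881) was called without JQ1 replicate 1 (adjusted p = 0.0392). TFDP2, a DNA-binding partner of E2F proteins, rose by 0.69 with JQ1 (adjusted p = 0.00923) and changed by 0.10 with FIDAS-5 (adjusted p = 0.716).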

How the data were processed

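RNA from 9 Huh7 libraries in 3 groups of 3 was sequenced, and the authors deposited a single table of TPM per gene symbol and library. Per the submitters' processing notes, Salmon and the hg38 build were used; the version, the annotation and any filter are not given in the sources used here. TPM is relative to the total of each library, so a change in abundant genes moves all others, and depth is unknown.

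Here log2(TPM + 1) values of the 13573 genes that reached 1 TPM in 3 or more libraries were fitted in limma 3.58.1 (R 4.3.3) with 3 group means on all 9 libraries, which share an estimate of the spread. Benjamini-Hochberg adjustment ran over all tested genes, and a gene was called at an adjusted p under 0.05. Intervals are 95% and unadjusted. The fitting script was tested on simulated data. Tables and figures were made in Python 3.11.15 with pandas 2.3.3 and matplotlib 3.10.9. Protein-coding genes were taken from RefSeq by current symbol or synonym, and 985 symbols had no match. Transcript GC content came from GENCODE release 29.

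The members and lists were chosen with earlier results of these data known. Values in every library were to be given for up to 3 members of each role (the 2 with the smallest adjusted p and the 1 with the largest), for members called higher, for E2F1 and PCNA, and for up to 8 members by adjusted p of the JQ1 minus FIDAS-5 difference; other lists name up to 5 genes by adjusted p and any called the other way. Further members were added after their values were seen. Replicate numbers came from the labels. Deviations from the group means correlated by 0.26, 0.102 and 0.422 between same-numbered JQ1 and FIDAS-5 libraries. The reported fit did not pair these libraries. In the JQ1 minus FIDAS-5 comparison a block on the number changed the RFC5 call and no other member's. Alternatives were another pseudocount, filter, scaling, adjustment or moderation, removal of the GC trend, the replicate block, a fit on the 6 libraries compared, and leaving out libraries.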

Additional observations from a re-analysis of the deposited data

How the results depend on the processing

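Medians of the members kept their sign under all alternatives run. With Benjamini-Yekutieli adjustment, which is stricter by construction, 29 members fell with FIDAS-5, 19 fell and 0 rose with JQ1, and 10 were higher and 0 lower with JQ1 than with FIDAS-5. Of all 13573 tested genes, 319 fell and 664 rose with FIDAS-5, and 1244 fell and 1235 rose with JQ1. Between the compounds 833 were higher and 1370 lower with JQ1. That adjustment left 6 further replication factors lower with FIDAS-5, and 2 lower and 1 higher with JQ1. In the E2F and pocket protein list it left 5 lower and 0 higher with JQ1. With the GC trend removed, 1 member was higher with FIDAS-5 and 4 with JQ1, 31 were higher and 5 lower with JQ1 than with FIDAS-5, and 2 genes of the E2F list were higher with JQ1. Of all 13042 genes tested there, 2397 were higher with FIDAS-5 and 3446 with JQ1. Between the compounds 3333 were higher and 3409 lower with JQ1. Median-of-ratios scaling gave 1 member and 1 gene of the E2F list higher with FIDAS-5, where 2124 of all 13515 tested genes were higher. That scaling, protein-coding scaling, quantile normalization and the fit on 6 libraries each gave 1 further factor higher with JQ1. Over all tested genes 2860 of 13515, 3071 of 16632, 3064 of 13573 and 2212 of 13573 were higher with JQ1, in that order. Protein-coding scaling gave 4 members lower with JQ1 than with FIDAS-5, and leaving out replicate 3 of both treated groups gave 0. Over all tested genes these settings gave 3503 of 16632 and 2028 of 13573. With no filter 6 members lost their FIDAS-5 call, and 1107 of all 23213 tested genes were lower with FIDAS-5. A filter at 5 TPM, which tests fewer genes, left 4 of the E2F list lower with FIDAS-5 and 1 member higher with JQ1. Of all 8619 genes it tested, 755 were lower with FIDAS-5 and 1759 higher with JQ1. For the other alternatives the cause was not tested. Removing the GC trend also brought calls for ORC2, ORC3, POLD1, CHTF18 and E2F1 (lower) and POLE4 (higher) with FIDAS-5, and ORC3, PRIM2, RFC5 and TOPBP1 (lower) and ORC4 and POLE4 (higher) with JQ1.

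Leaving out each library in turn gave 7 to 17 further factors lower with FIDAS-5, 1 to 4 of them higher with JQ1, 1 to 3 members higher with JQ1, and 12 to 29 higher and 1 to 2 lower with JQ1 than with FIDAS-5. Of all 13573 tested genes, 548 to 1445 were then lower with FIDAS-5 and 1808 to 3125 higher with JQ1. Between the compounds 1369 to 3246 were higher and 1970 to 2618 lower with JQ1. Uncalled JQ1 fold changes that changed sign ranged from -0.29 to 0.26 for GMNN, -0.026 to 0.12 for GINS4, -0.15 to 0.28 for POLD1, -0.48 to 0.053 for PCNA, -0.40 to 0.12 for RFC1, -0.17 to 0.10 for RPA1 and -0.15 to 0.27 for E2F1; TFDP2 with FIDAS-5 ranged from -9.10e-04 to 0.18. Without replicate 3 of both treated groups the JQ1 values were 0.26 for GMNN, 0.053 for PCNA, 0.12 for RFC1 and 0.10 for RPA1. With the GC trend removed they were 0.10 for GMNN, -1.23e-04 for GINS4, -0.22 for POLD1, 7.81e-04 for RPA1, -0.17 for ASF1B and -0.18 for E2F1, and CCND1 with FIDAS-5 was -0.0080. Leaving out JQ1 replicate 3 moved the median JQ1 fold change of all genes to 0.12.

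Deviations of same-numbered treated and vehicle libraries correlated by 0.037, 0.16 and 0.005 for FIDAS-5, and by -0.076, 0.033 and -0.002 for JQ1. With the replicate block 46 members were lower with FIDAS-5 and 32 with JQ1, ORC3 being added in both, and 17 were higher with JQ1 than with FIDAS-5. Over all 13573 tested genes these counts were 1136, 2811 and 2450.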
